A study of Mus musculus with 4 samples.

Results

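The nuclear genes of the mitochondrial respiratory chain were followed in mouse embryonic fibroblasts that had received reprogramming factors. The genes were chosen by name. They are the protein-coding genes whose symbols begin with Nduf, Uqcr, Cox4, Cox5, Cox6, Cox7, Cox8 or Atp5, together with Sdha, Sdhb, Sdhc and Sdhd, without entries marked as pseudogenes. This gave 93 genes of 27597 listed. By name 46 were counted with complex I, 4 with complex II, 8 with complex III, 18 with complex IV and 17 with complex V. The rule uses names alone, but the group was chosen with earlier results of these data known.

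All cells came from skin of embryos of the strain OGXICR at age D13.5, with the epidermis removed, and were grown in serum-containing medium. All 4 groups, the control included, were infected through a doxycycline-inducible lentiviral system: empty vector carried no factor, SKM carried SOX2, KLF4 and c-MYC, OSKM carried OCT4 besides these, and G3SKM carried GATA3 in place of OCT4. The labels give neither the time after infection nor the share of cells that took up each factor. Each group has 1 value per gene, which stands for 2 replicates, so differences cannot be read against replicate error and no test was possible. Nothing in the labels says whether the replicates came from separate cultures.

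The respiratory chain passes electrons from NADH (complex I) and succinate (complex II) through ubiquinone to complex III, on to cytochrome c and then to complex IV, where oxygen is reduced. Complexes I, III and IV pump protons out of the mitochondrial matrix, and complex V, the ATP synthase, uses their return flow to make ATP. A few subunits of complexes I, III, IV and V are encoded by mitochondrial DNA, while all of complex II and most other subunits are encoded in the nucleus. Proliferating fibroblasts and pluripotent cells are known to draw much of their ATP from glycolysis, and the balance between glycolysis and respiration is known to shift during reprogramming. None of the 13 subunits encoded by mitochondrial DNA was analysed here.

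Values are RPKM as deposited, that is, reads divided by gene length and by library depth. The length is the whole gene span, introns included, and a gene with long introns has a low value. Levels are therefore compared between genes only on an exon-length scale, which is RPKM taken per kilobase of exon. Ratios were taken as log2 of RPKM + 1 in each group, which understates the difference for low genes. Calls follow a rule of size: the log2 ratio had to reach 1 in either direction, and a gene counted as measured when either group of a comparison held at least 1 RPKM. Folds compare RPKM directly. In brackets after a fold stands its 95% Clopper-Pearson interval from recovered reads, which holds counting error alone and, for amplified cDNA, is narrower than the true error.

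The depth recovered from the steps of the values ran from 54.0 M reads in SKM to 111 M in empty vector. The SKM values also followed the GC content of transcripts more than those of the other 3 groups did, which touches every comparison that holds SKM. Values after removal of that trend, called GC-removed, are given beside the calls it ends and the medians it moves most. Among the genes of the delivered factors, Myc went against the labels: it was at 16.0 RPKM per gene span in empty vector, 11.9 with SKM, 10.5 with OSKM and 6.31 with G3SKM. Klf4 was higher in each factor group, at 6.26 in empty vector, 19.3 with SKM, 13.9 with OSKM and 8.55 with G3SKM. So was Sox2, at 0.260, 187, 110.5 and 70.7 in the same order. Sox2, Klf4 and Myc were thus each lower in OSKM than in SKM, and lower still in G3SKM. Pou5f1, which encodes OCT4, was highest in OSKM at 3.69, against 0 to 0.297 elsewhere, and Gata3 in G3SKM, at only 0.571, against 0.0836 or less. The labels do not say from which species or with which parts of the transcript the factors were delivered, so how far these values read the delivered copies was not tested, and the groups are named here as labelled. Fibroblast marker genes were present in all groups, 10 of 10 at 1 or more on the exon-length scale in every group except SKM, where it was 9 of 10.

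The respiratory chain genes were mostly higher in the cells that received factors than in empty vector, by small amounts. Summed on the exon-length scale, the 93 genes stood at 4481 in empty vector, 6059 with SKM, 5654 with OSKM and 6254 with G3SKM. They took 0.734% of the reads in empty vector, 0.979% with SKM, 0.949% with OSKM and 1.003% with G3SKM. Empty vector was the lowest on both measures, and the 3 factor groups lay close together.

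In SKM against empty vector, 7 of 81 measured genes were called higher, against 8.88% of all genes, and 0 lower, against 5.98%. The count called was thus near the background. The median log2 ratio was 0.40, against 0.15 over all genes measured, and 67 of the 81 lay above 0, where 58.3% of all genes did. In OSKM against empty vector, 2 of 81 were called higher, against 4.79% of all genes, and 0 lower, against 4.14%. The median was 0.32, against 0.18 over all genes, and 75 of 81 lay above 0, against 64.9%. In G3SKM against empty vector, 6 of 82 were called higher, against 7.06% of all genes, and 0 lower, against 3.74%. The median was 0.47, against 0.17 over all genes, and 77 of 82 lay above 0, against 63.1%. These comparisons share the empty vector library and are set side by side as values only. After centring on the median of all genes, which removes their shift of 0.15, 0.18 and 0.17, the ratio lay above 0 for 59 of 81 genes in SKM, 57 of 81 in OSKM and 66 of 82 in G3SKM. With that centring 4 genes were called higher and 1 lower (Uqcrb) in SKM against empty vector, in place of 7 and 0, and 2 higher (Cox6b2 and Ndufb4) in G3SKM against empty vector, in place of 6.

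Between the groups that received factors the genes differed little. In OSKM against SKM, which asks what OCT4 adds, 1 of 81 genes was called higher (2.55% of all genes) and 0 lower (1.64%), with a median of -0.03 against -0.01 over all genes and 38 of 81 above 0 (49.6% of all genes). In G3SKM against SKM, 1 of 82 was called higher (4.43% of all genes) and 1 lower (1.1%). The median was 0.08, against -0.00 over all genes, and 45 of 82 lay above 0 (49.7% of all genes). G3SKM against OSKM, a comparison added after values had been seen, had 0 called in either direction of 82 (2.22% of all genes higher and 0.724% lower). Its median was 0.13, against -0.01 over all genes, and 53 of 82 genes lay above 0, against 48.2%. That median was 0.06 over genes without pseudogene copies and with under 10% of exon bases shared.

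A smaller rule of 0.5 shows where the bulk of the chain lay. In SKM against empty vector it called 26 genes higher (28.2% of all genes) and 3 lower (18.2%). In OSKM against empty vector 20 were higher (21.9%) and 0 lower (11.2%), and in G3SKM against empty vector 33 were higher (25.8%) and 0 lower (11.6%). The chain thus held fewer low genes than the background in these comparisons, and in G3SKM also more high ones. In OSKM against SKM 4 were higher (14.6%) and 5 lower (11.5%), in G3SKM against SKM 10 (17.4%) and 5 (12.7%), and in G3SKM against OSKM 7 (8.79%) and 1 (5.06%).

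**Figure D1:**
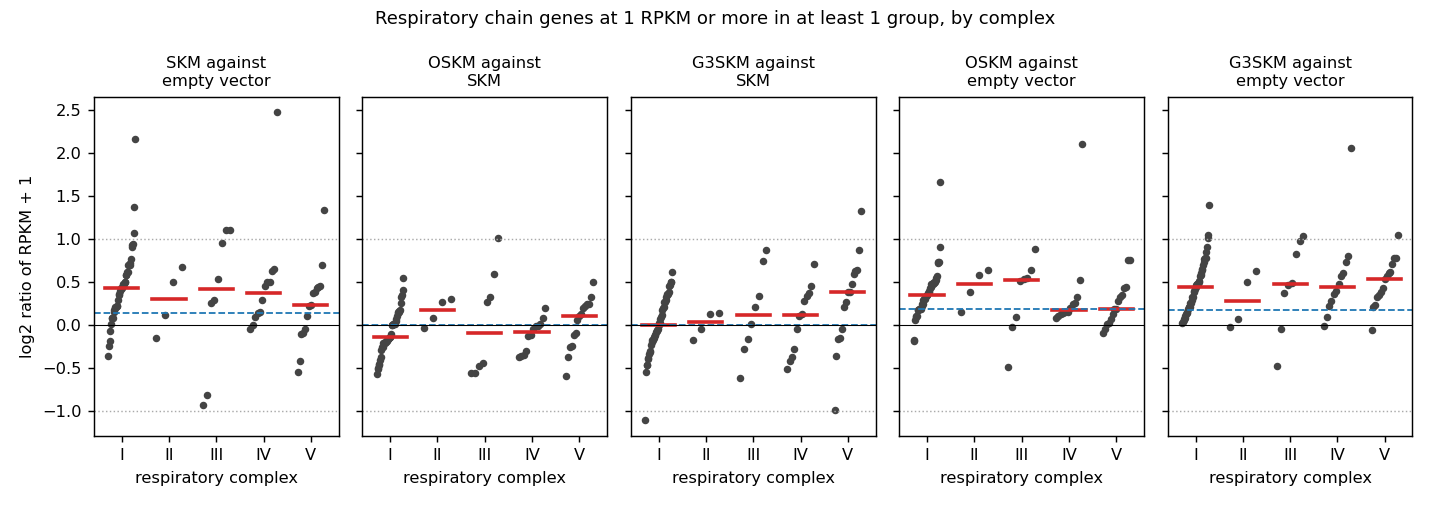
Log2 ratio of RPKM + 1 (vertical axis) for each measured respiratory chain gene, by complex (horizontal axis), in 5 comparisons. Points are genes, red bars are medians of a complex, the dashed blue line is the median of all genes and dotted lines mark the rule of size at 1 and -1. Most points lie above 0 in the 3 comparisons with empty vector, while the medians of OSKM and G3SKM against SKM run from -0.14 to 0.38.

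Of the 93 genes, 12 were under 1 RPKM in the comparisons without G3SKM and 11 in those with it. They were Cox4i2, Cox6a2, Cox7a1, Cox7b2, Cox8b and Cox8c of complex IV, Ndufs4, Ndufaf2 and Ndufaf5 of complex I, Atp5o and Atp5s of complex V, and Ndufaf6, which passed only in G3SKM. Several of these are low only per gene span: Ndufs4, an accessory subunit of complex I, averaged 19.6 over the 4 groups on the exon-length scale. A gene that passed only through its higher group could only appear higher there, as was so for Ndufaf6, an assembly factor, at 0.338 RPKM in empty vector and 1.04 in G3SKM.

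Complex I was higher than empty vector in each factor group by its median. The genes called were the accessory subunits Ndufb4 and Ndufa7 and, counted here by name, Ndufa4l2. The medians of its measured genes were 0.43 with SKM, 0.34 with OSKM and 0.44 with G3SKM, and in G3SKM 43 of 43 genes lay above 0. Ndufaf6 and Ndufa4l2 passed the filter there only through G3SKM, so they could only lie above 0. Among the 7 core subunits, which carry the flavin and iron-sulfur clusters, the median was 0.42 with SKM, 0.34 with OSKM and 0.33 with G3SKM, and 0 of 7 were called in any of these. The 31 remaining Nduf genes, mostly accessory subunits that surround and stabilise that core, had medians of 0.47, 0.35 and 0.47 over the 30 measured. They include Ndufa4, now known as a subunit of complex IV, and its paralogue Ndufa4l2. The assembly factors, which build the complex and are not part of it, had medians of 0.21 and 0.34 over 5 genes in SKM and OSKM, and 0.44 over 6 in G3SKM.

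Ndufa4l2, a paralogue of Ndufa4 and a known hypoxia-inducible gene, was at 0.0407 RPKM in empty vector, 3.65 with SKM, 2.29 with OSKM and 1.16 with G3SKM. It was nearly silent in empty vector and highest in SKM. It was 89.9-fold higher in SKM (47.8 to 187), 56.4-fold in OSKM (29.99 to 117) and 28.5-fold in G3SKM (15.1 to 59.4), all against 10 reads in empty vector. Its log2 ratios were 2.16, 1.66 and 1.05, so it was called higher against empty vector in all 3 groups, in G3SKM without centring only (0.88 with it). In each of these comparisons it passed the filter only through the factor group, so it could only appear higher there. In G3SKM against SKM Ndufa4l2 was the lowest gene of the chain and was called lower, at -1.11, or 3.16-fold lower (2.70 to 3.70). That call was lost on removal of the GC trend, which left -0.68, and 2.92% of its exon bases are shared with Shmt2 on the other strand, which these libraries do not tell apart.

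Ndufb4, an accessory subunit of the membrane arm, was at 4.95 RPKM in empty vector, 14.4 with SKM, 10.2 with OSKM and 14.7 with G3SKM. Empty vector was lowest, and SKM and G3SKM lay close together. It was called higher in SKM (1.37, 2.91-fold, 2.80 to 3.03) and in G3SKM (1.39, 2.96-fold, 2.85 to 3.07), and its ratio in OSKM was 0.91. Ndufa7, another accessory subunit, was at 4.45 RPKM in empty vector, 10.4 with SKM, 6.72 with OSKM and 10.02 with G3SKM. It too was lowest in empty vector and highest in SKM and G3SKM. It was called higher in SKM (1.07, 2.35-fold, 2.27 to 2.42) and in G3SKM (1.02, 2.25-fold, 2.19 to 2.32). Both calls ended with the GC trend removed (0.80 and 0.98) and with centring (0.92 and 0.85). Ndufa7 was the lowest complex I gene in OSKM against SKM, at -0.57. Neither gene shares exon bases with another annotated gene, but Ndufb4 has a processed pseudogene copy, Ndufb4c.

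The core subunits Ndufs1 and Ndufv1 did not follow each other. Ndufs1, the large iron-sulfur subunit of the electron-input arm, was at 2.17 RPKM in empty vector, 1.46 with SKM, 2.59 with OSKM and 2.40 with G3SKM. SKM was the lowest group, and the ratio of -0.36 against empty vector was the lowest in complex I. In OSKM against SKM it was the highest complex I gene, at 0.55. After removal of the GC trend these values became 0.07 and 0.17. Ndufv1, which binds NADH and the flavin, was at 13.3 RPKM in empty vector, 19.3 with SKM, 16.5 with OSKM and 13.7 with G3SKM, with ratios of 0.50, 0.29 and 0.03 against empty vector.

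The remaining extremes of complex I were small. The lowest ratio in OSKM against empty vector was that of Ndufa3 (-0.19), and in G3SKM against empty vector those of Ndufa2 and Ndufv1 (both 0.03). Ndufaf4, an assembly factor, was highest in G3SKM against SKM, at 0.62, with 2.78 RPKM in empty vector, 3.19 with SKM, 4.54 with OSKM and 5.41 with G3SKM. On the exon-length scale the most abundant genes of complex I were Ndufa2 (mean of the 4 groups 143), Ndufb9 (126) and Ndufb6 (114), all accessory subunits. Ndufa2 ran from 127 in OSKM to 153 in SKM, whereas Ndufb9 ran from 85.6 in empty vector to 151 in G3SKM and Ndufb6 from 88.7 to 140 in the same groups. Of the exon bases of Ndufa2, Ndufb9 and Ndufb6, 11.5%, 19.5% and 39% are shared with other annotated genes. These libraries do not tell such genes apart, so the levels may hold reads of those genes.

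Complex II, succinate dehydrogenase, had 0 of 4 genes called in each comparison, which is near the background, where at most 8.88% of all genes were called in a direction. Sdhb, the iron-sulfur subunit, was at 4.54 RPKM in empty vector, 7.82 with SKM, 7.61 with OSKM and 6.82 with G3SKM, and was the highest gene of the complex in SKM and OSKM against empty vector (0.67 and 0.64), where Sdhd was highest in G3SKM (0.63). Sdha, the flavoprotein that holds the catalytic site, was at 4.40, 3.87, 4.997 and 4.31 RPKM in the same order and was the lowest of the 4 genes in all comparisons with empty vector (-0.15, 0.15 and -0.02). The catalytic subunit thus lay near its level in empty vector while its partner was 1.504-fold (1.46 to 1.55) to 1.72-fold (1.67 to 1.78) higher. Sdhd, a membrane anchor, was the most abundant on the exon-length scale, at 83.4 in empty vector, 120.2 with SKM, 127.5 with OSKM and 133 with G3SKM. Sdhb averaged 53.8 and Sdha 29.9 on that scale. Sdhc, the other anchor, lay between -0.05 and 0.38 in the 5 comparisons. In the comparisons with SKM the highest genes of the complex were Sdha with OCT4 (0.30) and Sdhd with GATA3 (0.14), and the lowest in both was Sdhb (-0.03 and -0.17).

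Complex III held subunits on both sides of empty vector. Against empty vector its medians were 0.42 with SKM, 0.52 with OSKM and 0.48 with G3SKM, yet of 8 genes 2 were called higher in SKM while Uqcrb and Uqcrh lay close to the rule in the opposite direction. Uqcrc1, the first of the large core subunits on the matrix side, was at 12.7 RPKM in empty vector, 28.6 with SKM, 20.3 with OSKM and 18.3 with G3SKM. SKM stood highest and empty vector lowest. It was called higher in SKM (1.11, 2.25-fold, 2.20 to 2.29), with 0.64 in OSKM and 0.49 in G3SKM, and was the lowest complex III gene in G3SKM against SKM (-0.62). The call ended with the GC trend removed (0.75) and with centring on the median of all genes (0.96). Its partner Uqcrc2 was at 4.63, 5.89, 9.39 and 10.5 RPKM in the same order. Here SKM stayed near empty vector before removal of the GC trend (0.29), with 0.88 in OSKM. The gene was called higher in G3SKM (1.031, 2.27-fold, 2.22 to 2.32, GC-removed 1.11), and with centring the call ended (0.86). As the trend touches SKM, the difference between Uqcrc1 and Uqcrc2 in SKM may not hold without it. Of the exon bases of Uqcrc2, 19.8% are shared with Pdzd9 on the other strand.

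Uqcr11, a small membrane subunit, was at 11.2 RPKM in empty vector, 25.2 with SKM, 16.8 with OSKM and 20.7 with G3SKM, and was called higher in SKM (1.10, 2.25-fold, 2.16 to 2.34), a call that ended with the GC trend removed (0.73) and with centring (0.96). In OSKM against SKM it was the lowest gene of the complex (-0.56). Uqcr10, another small subunit, was at 33.6, 66.3, 48.4 and 67.0 RPKM and stayed just under the rule in SKM (0.96) and G3SKM (0.97). Uqcrb, a subunit at the ubiquinone site, was at 6.59 RPKM in empty vector, 2.99 with SKM, 7.07 with OSKM and 6.34 with G3SKM. Only SKM stood apart, and it stood low. Uqcrb was the lowest gene of the complex in SKM against empty vector (-0.93, 2.20-fold lower, 2.04 to 2.38) and the only gene of the chain called higher in OSKM against SKM (1.02, 2.36-fold, 2.18 to 2.57). In G3SKM against SKM it was 0.88. Its transcript is AT-rich, at 42.2% GC, and the ratios without the GC trend were -0.34, 0.55 and 0.39.

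Uqcrh, the acidic hinge subunit that helps bind cytochrome c1 to cytochrome c, was lower in every factor group than in empty vector, at 48.2 RPKM in empty vector, 26.9 with SKM, 34.1 with OSKM and 34.3 with G3SKM. It was 1.79-fold lower in SKM (1.76 to 1.83), 1.42-fold in OSKM (1.39 to 1.44) and 1.41-fold in G3SKM (1.38 to 1.43), without reaching the rule. It was the lowest gene of the whole chain in OSKM and in G3SKM against empty vector (-0.49 and -0.48). Removal of the GC trend left -0.86, -0.51 and -0.55. Its processed pseudogenes Uqcrh-ps1 and Uqcrh-ps2 went the other way, from 27.1 to 49.5, 61.1 and 61.1 RPKM for the first and from 33.6 to 57.3, 62.8 and 63.6 for the second. How reads were shared between the gene and its copies was not tested. Uqcrh was nonetheless the most abundant complex III gene on the exon-length scale, at 316 in empty vector, 176 with SKM, 223 with OSKM and 225 with G3SKM, ahead of Uqcr10 (mean 218) and Uqcr11 (mean 111). Uqcrfs1, the Rieske iron-sulfur protein, was at 12.8, 15.6, 19.0 and 18.2 RPKM, with ratios of 0.26, 0.53 and 0.47 against empty vector.

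Complex IV, cytochrome c oxidase, had an alternative isoform that stood out. Its medians were 0.37 with SKM, 0.17 with OSKM and 0.44 with G3SKM over 12 measured genes, and Cox6b2 was the only gene called. Cox6b2, the isoform of subunit VIb best known from testis, was at 6.22 RPKM in empty vector, 39.2 with SKM, 30.1 with OSKM and 29.0 with G3SKM. All 3 factor groups stood far above empty vector. It was 6.30-fold higher in SKM (5.85 to 6.80), 4.83-fold in OSKM (4.48 to 5.21) and 4.66-fold in G3SKM (4.33 to 5.02), with log2 ratios of 2.48, 2.10 and 2.05. On the log2 scale of RPKM + 1 these were the highest ratios of the chain in each comparison with empty vector. By fold Ndufa4l2 exceeded them in all 3, and on exon length in SKM (2.94 against 2.50) and OSKM (2.37 against 2.13). Removal of the GC trend left 2.13, 2.12 and 2.06 for Cox6b2. The gene shares no exon bases with another annotated gene. In OSKM and G3SKM against SKM it was lower by little, at -0.37 and -0.42.

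Cox4i1, the common form of the largest nuclear subunit, was at 41.6 RPKM in empty vector, 64.7 with SKM, 49.99 with OSKM and 69.8 with G3SKM. Cox5a was at 6.71, 9.89, 7.83 and 7.97 RPKM. Their ratios against empty vector were 0.63, 0.26 and 0.73 for Cox4i1 and 0.50, 0.20 and 0.22 for Cox5a. Cox7b, a small membrane subunit, was at 19.8, 21.3, 21.5 and 35.3 RPKM, and only G3SKM stood apart, at 0.71 against SKM, the highest ratio of the complex in that comparison. Cox7a2l, a supercomplex factor that links complexes III and IV, stayed level, at 8.06, 7.79, 9.06 and 8.63 RPKM. It had the lowest ratio of the complex in SKM against empty vector (-0.04) and the highest in OSKM against SKM (0.20). Cox6a1 had the lowest in G3SKM, -0.51 against SKM and -0.02 against empty vector, and Cox6c the lowest in OSKM against empty vector (0.08). On the exon-length scale the leading genes were Cox8a (mean 237), Cox4i1 (218) and Cox6b1 (196).

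**Figure D2:**
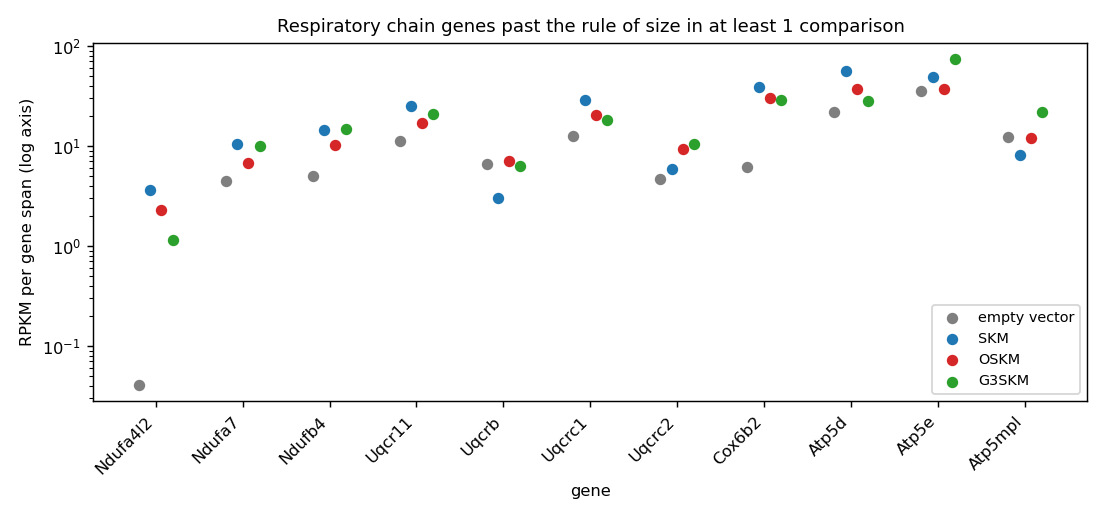
RPKM per gene span (vertical axis, log scale) of the 11 respiratory chain genes past the rule of size in at least 1 of 5 comparisons, with 1 point for each group. Empty vector is the lowest point for Ndufa4l2, Cox6b2, Ndufb4 and Ndufa7, while for Uqcrb and Atp5mpl the SKM point is the lowest, at 2.99 and 8.16.

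Complex V, the ATP synthase, had the highest median of the complexes in G3SKM against empty vector. Its medians against empty vector were 0.23 with SKM, 0.19 with OSKM and 0.53 with G3SKM over 15 measured genes, and in G3SKM against SKM the median was 0.38, against -0.00 over all genes, or 0.24 with the GC trend removed. Parts of the enzyme differed. The F1 head and central stalk, which make ATP, had medians over their 5 genes of 0.45 with SKM, 0.44 with OSKM and 0.35 with G3SKM against empty vector. The other measured subunits, which form the membrane ring, the peripheral stalk and the accessory parts, had medians of 0.09, 0.16 and 0.55. In G3SKM against OSKM these 10 genes all lay above 0, with a median of 0.30. The 5 genes of the F1 part had a median of -0.40, with 2 of them above 0. Ratios in that comparison also fell with transcript length, with a Spearman's rho of -0.323 for the chain and -0.180 for protein-coding genes. The F1 genes below 0, Atp5a1, Atp5b and Atp5d, have transcripts of 2471, 1916 and 1410 bases. Those above 0, Atp5c1 and Atp5e, have 1166 and 421. Atp5g1 and Atp5f1, at 4715 and 1604 bases, lay above 0 as well. The part of length in this difference was not tested.

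Atp5a1 and Atp5b encode the alpha and beta subunits of the catalytic head. Atp5a1 was at 53.4 RPKM in empty vector, 87.1 with SKM, 90.6 with OSKM and 67.4 with G3SKM, with ratios of 0.70, 0.75 and 0.33 against empty vector, and was the most abundant complex V gene (mean 218 on the exon-length scale). Atp5b, next at a mean of 214, was at 118 RPKM in empty vector, 127 with SKM, 150.3 with OSKM and 113.6 with G3SKM. Its ratios of 0.10, 0.35 and -0.05 were smaller, and the last was the lowest of the complex. Atp5d, the delta subunit of the central stalk, was at 21.7, 56.7, 37.4 and 28.04 RPKM. It was highest in SKM, where it was called higher (1.34, 2.61-fold, 2.55 to 2.66), and was lowest of the complex in OSKM and in G3SKM against SKM (-0.59 and -0.99). Its transcript has a GC content of 59.3%, and removal of the trend left 0.94, -0.17 and -0.56 in these comparisons. Atp5d and Atp5a1 were also highest of the complex in OSKM against empty vector (both 0.75).

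Atp5e, the epsilon subunit, was at 35.3 RPKM in empty vector, 48.6 with SKM, 37.3 with OSKM and 74.0 with G3SKM. G3SKM stood alone at the top, and the gene was called higher there against empty vector (1.05, 2.10-fold, 2.05 to 2.14), a call that centring ended (0.88). Atp5mpl, a small membrane protein of the synthase dimer, was at 12.4, 8.16, 12.0 and 21.9 RPKM, lowest in SKM and highest in G3SKM. It was called higher in G3SKM against SKM (1.32, 2.69-fold, 2.57 to 2.81), the highest ratio of the chain there, and stayed past the rule after GC removal (1.47). It was the lowest of complex V in SKM against empty vector (-0.55) and the highest in OSKM against SKM (0.50). Atp5k, another small membrane subunit, was at 16.0, 15.0, 16.1 and 28.1 RPKM, with 0.87 in G3SKM against SKM. Atp5e, Atp5mpl and Atp5k had the largest ratios of the chain in G3SKM against OSKM, at 0.97, 0.82 and 0.77, and have short transcripts of 421, 612 and 371 bases. None of the 3 shares exon bases with another annotated gene, while Atp5k has pseudogene copies. Atp5j, of the peripheral stalk, was lowest in OSKM against empty vector, at -0.09.

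The 3 genes Atp5g1, Atp5g2 and Atp5g3 encode the same mature subunit c of the membrane ring with different targeting sequences. On the exon-length scale Atp5g3 led in all groups, at 109 in empty vector, 141 with SKM, 132 with OSKM and 163 with G3SKM. Atp5g2 followed at 59.1, 81.8, 68.1 and 79.1, and Atp5g1 was at 10.4, 14.0, 11.5 and 12.5. The order of the 3 genes was the same in every group.

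Some subunits exist in a common and an alternative isoform, and the common one was the more abundant in every group for all 6 pairs looked at. On the exon-length scale Cox6b2 stood at 4.32% of Cox6b1 in empty vector, 24.6% with SKM, 18.9% with OSKM and 14.1% with G3SKM. Cox6b1 itself was at 169, 188, 187 and 241, highest in G3SKM. Between OSKM and G3SKM the level of Cox6b2 was close, at 35.4 and 34.1, while that of Cox6b1 differed. Ndufa4l2 stood at 0.116% of Ndufa4 in empty vector, 8.04% with SKM and 1.77% with G3SKM, with OSKM between these. Ndufa4, which by its name is counted here with complex I but is now known as a subunit of complex IV, was at 69.8, 90.8, 91.6 and 130.3, highest in G3SKM, where Ndufa4l2 was the lowest of the factor groups.

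The isoforms known from heart and skeletal muscle were low throughout. Cox6a2 was at 0.987 RPKM in empty vector, 0.119 with SKM, 0.230 with OSKM and 0.0953 with G3SKM, under the filter in all groups. On recovered reads it was 8.27-fold lower in SKM (3.74 to 23.5), 4.29-fold in OSKM (2.57 to 7.93) and 10.4-fold in G3SKM (5.35 to 23.7), with 104 reads in empty vector and 6 to 16 in the others. The summed muscle markers were also highest in empty vector, at 45.6 on the exon-length scale against 18.7 to 30.04, with 4 of 7 at 1 or more there and 3 of 7 in the other groups, and Myog at 0 in SKM. Acta1 alone gave 26.1, 19.4, 12.2 and 10.05 of these sums, while Ckm and Myod1, under 1 in every group, were lowest in empty vector. Of the exon bases of Cox6a2, 10.3% are shared with Itgad on the other strand, which these libraries do not tell apart. Neither the part of muscle cells nor that of Itgad reads in the Cox6a2 values was tested. Cox7a1 went the other way, at 0.388 RPKM in empty vector, 0.887 with SKM, 0.598 with OSKM and 0.742 with G3SKM, and stood at 1.43% to 2.93% of Cox7a2. Cox8b had 9 reads in empty vector, 1 with SKM, 2 with OSKM and 0 with G3SKM.

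Cox4i2, an isoform of subunit IV known for induction by low oxygen, stood at 1.05% of Cox4i1 in empty vector, 1.11% with SKM, 0.976% with OSKM and 0.589% with G3SKM. Its folds against empty vector were 1.64 in SKM (1.28 to 2.10), 1.12 in OSKM (0.864 to 1.44) and 0.939 in G3SKM (0.735 to 1.20). Like Ndufa4l2 it was highest in SKM, then OSKM, then G3SKM, with much smaller folds. Cox7b2 was at no more than 0.145 on the exon-length scale, where Cox7b was at 110.3 to 197. Cox8c was listed in 1 table, at 0 in SKM and 0.0218 RPKM in OSKM.

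**Figure D3:**
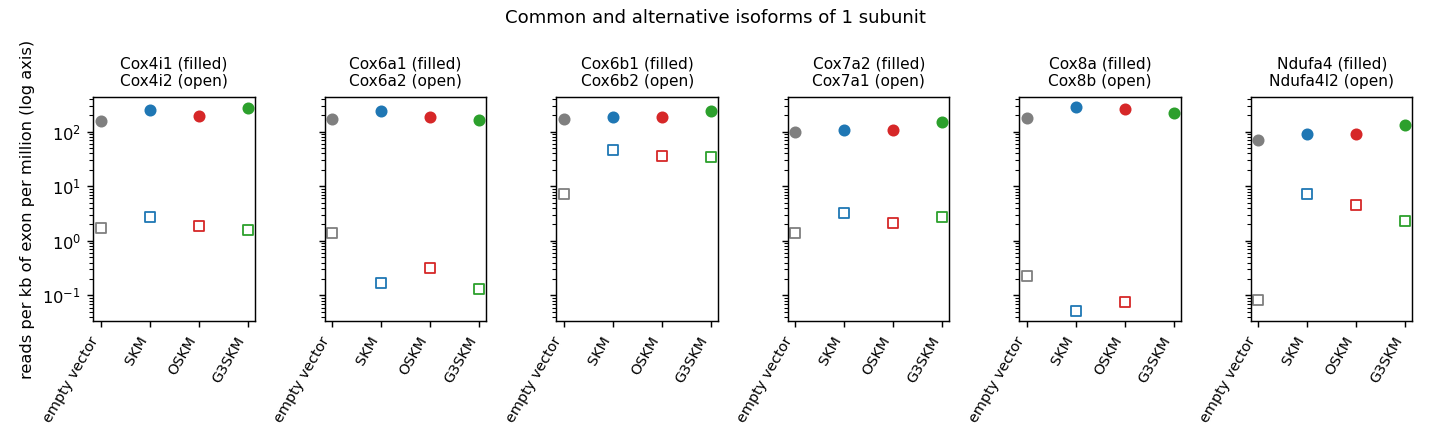
Level on the exon-length scale (vertical axis, log scale, RPKM taken per kilobase of exon) of the common isoform (filled circles) and the alternative isoform (open squares) of 6 subunits in the 4 groups (horizontal axis). Cox6b2 and Ndufa4l2 lie higher in the 3 factor groups than in empty vector, Cox6a2 lies lower, and Cox8b has no point in G3SKM, where it had 0 reads.

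The GC content of a transcript went with the ratio in every comparison that holds SKM. Ranked against transcript GC, the log2 ratios of the measured respiratory chain genes had a Spearman's rho of 0.513 in SKM against empty vector (n = 81), -0.564 in OSKM against SKM (n = 81) and -0.588 in G3SKM against SKM (n = 82). Over all measured protein-coding genes it was 0.516, -0.764 and -0.764. Without the SKM library it was 0.157 in OSKM and -0.0437 in G3SKM against empty vector for the chain. Genes are not independent replicates and share their libraries, so these values are descriptions. With the trend removed, 6 genes of the chain were called higher in SKM against empty vector. Cox6b2, Ndufa4l2 (1.76) and Ndufb4 (1.31) remained, Ndufa1 (1.14), Ndufab1 (1.06) and Ndufv2 (1.00) came in, and Atp5d, Ndufa7 (0.80), Uqcr11 (0.73) and Uqcrc1 (0.75) dropped under the rule. The median ratio was then 0.38, against 0.14 over all genes. By complex the GC-removed medians in SKM against empty vector were 0.40 for complex I, 0.36 for II, 0.59 for III, 0.26 for IV and 0.19 for V.

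**Figure D4:**
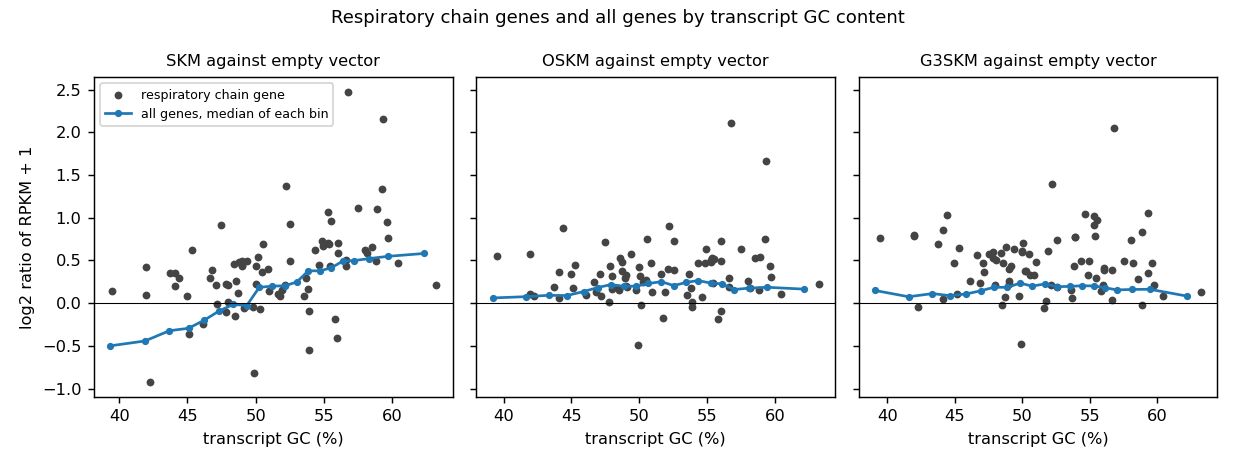
Log2 ratio of RPKM + 1 against empty vector (vertical axis) by transcript GC content in percent (horizontal axis). Dark points are respiratory chain genes and the blue line joins medians of all genes in 20 bins of GC. The line climbs with GC in SKM and is nearly level in OSKM and G3SKM, where most respiratory chain genes lie above it.

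Transcript length also set these genes apart. Their median transcript had 838 bases, against 2726 for all protein-coding genes listed, and 59.1% were under 1000 bases, against 9.02%. Among all protein-coding genes under 1000 bases, the median ratio against empty vector was 0.39 with SKM, 0.28 with OSKM and 0.38 with G3SKM, close to the 0.44, 0.28 and 0.50 of the respiratory chain genes of that length. Among genes of 1000 bases or more, the respiratory chain stood at 0.28, 0.35 and 0.39, against 0.14, 0.16 and 0.12 for all protein-coding genes. The larger difference from other genes was thus among longer transcripts in all 3 groups, while among short ones the values lay closer together. With the trend of the ratio with transcript length removed, an alternative chosen after seeing the data, the medians of the chain were 0.36, 0.25 and 0.38. The calls in G3SKM then numbered 2 (Cox6b2 and Ndufb4) in place of 6, and Uqcrc1 was at 0.99 in SKM.

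Marker genes of other cell types differed between the groups as well. On the exon-length scale the macrophage markers summed to 104 in empty vector, with 7 of 7 at 1 or more, and to 12.2 with SKM, 4.90 with OSKM and 9.78 with G3SKM, with 3 of 7. The fibroblast markers summed to 1450 in empty vector, 1280 with SKM, 613 with OSKM and 676 with G3SKM, of which Col1a1 alone gave 851, 903, 368 and 426. In OSKM against empty vector 2 of 10 lay above 0, Dcn (0.81) and Lum (0.67), and both passed the filter only through OSKM. The keratinocyte markers summed to 1.32 in empty vector, where Krt1 was at 0, against 90.5, 52.3 and 62.3. Krt14 alone gave 84.3, 41.1 and 56.9 of these sums, while Krt5, Krt1 and Trp63 were under 1 in every group and Krt10 was level at 1.05, 1.02, 0.956 and 1.11. Endothelial markers stayed at 3.16 or less, erythroid markers at 1.32 or less and adipocyte markers at 4.08 or less. In such bulk samples fewer cells of a type and less RNA per cell cannot be told apart, and the part of these cells in the respiratory chain values was not tested.

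Letters known from promoters of respiratory chain genes were looked up in the windows from 250 bases before to 50 after the RefSeq gene start (GRCm38.p6), on both strands, for 76 of the 93 genes. The core of the site of NRF1, a transcription factor known for nuclear respiratory genes, GCGCATGC, was in 12 of these windows (15.8%), against 3.93% of protein-coding and 3.05% of all gene symbols. The ETS site letters ACCGGAAG, known for GABP, were in 7 (9.21%), against 3.402% and 2.60%. The YY1 letters AAGATGGCG were in 8 (10.5%), against 2.14% and 1.64%, and 7 of the 8 matches lay after the start. The NRF1 letters and their reverse complement overlap within GCGCATGCGC, which counts once per window. A match is a description of letters, not of binding.

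Of the 11 genes called in at least 1 comparison, 7 had a window, and 3 of these held a match. Their matches are shown 5′ to 3′ on the strand of the gene with 10 bases on each side and the matched letters in capitals, beside those of Sdhb, the only gene with both NRF1 and ETS letters, and of Cox6a1, an NRF1 match in a gene that was not called.
Uqcrc1, NRF1, chr9:108936668-108936695, plus strand: actccgctctGCGCATGCgcagcgcggc
Uqcr11, NRF1 (reverse complement), chr10:80406808-80406835, minus strand: tcgccttcacGCATGCGCtatacgtctg
Atp5e, ETS (reverse complement), chr2:174464186-174464213, minus strand: acggccacagCTTCCGGTagccgctcgg
Sdhb, NRF1 (reverse complement), chr4:140961207-140961234, plus strand: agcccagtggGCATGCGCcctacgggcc
Sdhb, ETS, chr4:140961266-140961293, plus strand: gctcggagaaACCGGAAGcggccttcca
Cox6a1, NRF1, chr5:115349103-115349130, minus strand: caggaacgggGCGCATGCgcgctctcgc

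The windows of Cox6b2, Ndufb4, Ndufa7 and Atp5d held none of the 3 sets of letters. The 150 bases before the start of Cox6b2, called in all 3 comparisons with empty vector, and of Ndufb4, called in SKM and G3SKM, are shown for comparison. The first has a GC content of 58.7% with 7 CpG pairs and the second 68% with 13.
Cox6b2, chr7:4753095-4753244, minus strand: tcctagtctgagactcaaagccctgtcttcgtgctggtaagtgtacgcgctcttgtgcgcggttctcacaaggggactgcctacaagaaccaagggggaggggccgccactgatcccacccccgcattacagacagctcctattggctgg
Ndufb4, chr16:37654369-37654518, minus strand: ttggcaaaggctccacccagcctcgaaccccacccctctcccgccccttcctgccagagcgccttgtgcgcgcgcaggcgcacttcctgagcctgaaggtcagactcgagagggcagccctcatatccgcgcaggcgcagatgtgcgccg

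Median ratios of the genes with such letters lay on both sides of those of the whole chain. For NRF1 letters the median over 11 measured genes was 0.50 in SKM against empty vector, 0.19 in OSKM and 0.50 in G3SKM, where the whole chain had 0.40, 0.32 and 0.47. Those with ETS letters had 0.46, 0.18 and 0.50 over 7 genes, and those with YY1 letters 0.21, 0.22 and 0.21 over 7.

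Among other genes of mitochondrial respiration, the cytochromes and assembly factors outside the naming rule had medians in the same range. Of 32 on the list, 24 were measured in SKM against empty vector, 1 was called higher and 0 lower (8.88% and 5.98% of all genes), and the median was 0.37, against 0.15 over all genes. The medians were 0.35 in OSKM and 0.40 in G3SKM against empty vector. Ecsit, a complex I assembly factor, was called higher in SKM (1.04, GC-removed 0.76), at 1.47 RPKM in empty vector, 4.06 with SKM, 3.54 with OSKM and 2.98 with G3SKM. Cox20, an assembly factor of complex IV, was at 4.70, 4.46, 3.98 and 10.6 RPKM. It was called higher in G3SKM against empty vector (1.02, GC-removed 1.10), against SKM (1.08, GC-removed 0.71) and against OSKM (1.22, GC-removed 1.20). Each time it was 1 of 26 measured, against 7.06%, 4.43% and 2.22% of all genes. Cyc1, the cytochrome of complex III, was at 34.2, 63.6, 59.7 and 52.3 RPKM, highest in SKM. Cycs, the mobile cytochrome c, was at 23.4, 17.8, 31.9 and 31.4 RPKM, lowest in SKM, and had the lowest ratio of the list in SKM against empty vector (-0.37, GC-removed 0.21) and the highest in OSKM against SKM (0.81, GC-removed 0.34).

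Of 15 regulators of mitochondrial biogenesis, 9 were measured in SKM against empty vector, where 3 were called higher and 0 lower (8.88% and 5.98% of all genes) with a median of 0.68, against 0.15 over all genes. With the GC trend removed the median was 0.58 and of these 3 only Twnk stayed past the rule. Esrra, an orphan receptor that acts on respiratory genes, was at 2.54 RPKM in empty vector, 7.48 with SKM, 5.82 with OSKM and 6.63 with G3SKM, called higher in SKM (1.26, GC-removed 0.82) and G3SKM (1.11). Twnk, the helicase of mitochondrial DNA, was at 2.63, 7.68, 6.06 and 6.05 RPKM, called higher in SKM (1.26, GC-removed 1.15). Polrmt, the mitochondrial RNA polymerase, was at 2.03, 5.58, 3.12 and 3.32 RPKM, called higher in SKM (1.12, GC-removed 0.68), and had the lowest ratio of the list in OSKM and in G3SKM against SKM (-0.67 and -0.61, GC-removed -0.19 and -0.10). Tfam, which packages mitochondrial DNA, was at 1.71, 2.00, 2.60 and 2.99 RPKM, highest in G3SKM, without being called. Tfb2m had the lowest ratio in SKM against empty vector (-0.26, GC-removed 0.32). Ppargc1a, a coactivator of mitochondrial biogenesis, was near 0, at 0.00382 RPKM or less in every group.

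The tricarboxylic acid cycle genes had 0 called of 12 measured (14 on the list) in each of the 5 comparisons, where 1.1% to 8.88% of all genes were called in a direction, so 0 of 12 is near the background. They had medians against empty vector of 0.18 with SKM, 0.35 with OSKM and 0.19 with G3SKM, and the first was 0.09 with the GC trend removed. Idh2 was highest in SKM against empty vector (0.85, GC-removed 0.58) and Dld, a shared subunit of the 2-oxoglutarate and pyruvate dehydrogenases, lowest (-0.63, GC-removed 0.01). The 11 genes of pyruvate entry had medians against empty vector of -0.06 with SKM (GC-removed 0.31), 0.40 with OSKM and 0.18 with G3SKM. Pdk1 was the only gene called, in OSKM against empty vector (1.15), as 1 of 8 measured, against 4.79% of all genes. This kinase, which restrains pyruvate dehydrogenase, was at 0.106 RPKM in empty vector, 0.858 with SKM, 1.46 with OSKM and 0.857 with G3SKM. It passed the filter there only through OSKM, so it could only appear higher. In SKM and in G3SKM against empty vector it stayed under the filter and was not measured. The 8 genes of uncoupling and transport, 7 of them measured, did not share the rise. Their medians against empty vector were -0.21 with SKM (GC-removed -0.14), 0.006 with OSKM and -0.06 with G3SKM. Vdac3, a channel of the outer membrane, was called lower in SKM against empty vector (-1.01, GC-removed -0.67), at 4.67, 1.81, 3.46 and 3.45 RPKM. Ucp2, an inner membrane carrier, was called lower in OSKM against SKM (-1.26, GC-removed -1.09), at 9.95, 18.0, 6.94 and 9.24 RPKM, highest in SKM. Each was 1 of 7 measured, against 5.98% and 1.64% of all genes called lower.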

How the data were processed

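RNA from the 4 groups was measured by sequencing. Per the labels' protocols, amplified cDNA went through further PCR, sonication and a DNA library kit, which does not keep strand, so overlapping genes cannot be told apart. Alignment with TopHat 1.3.0 and the build mm9 are named in the submitters' processing notes. No source used here gives the read counter, the annotation or the way the 2 replicates were joined. The authors deposited RPKM, per the file headers, and each table adds the log2 ratio of its columns, which was not used. The SKM column was identical in the 3 tables, so columns of different tables were set side by side.

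A value of 0.001 was read as 0. Symbols, spans, exon lengths and GC came from GENCODE M21, which covered 91.0% of listed genes and belongs to a later build, so no coordinates are given for the values. RPKM times span fell within 0.05 of whole multiples of 1 step for 73.8% to 75.8% of genes with 1 to 1000 reads (10% by chance), which gave depth and reads. Reads of genes whose span differs from that used by the authors are approximate. Exon-length values are RPKM recomputed with the length of merged exons. The GC trend is the median ratio of all genes in 20 bins of GC.

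No test was run, since each group has 1 value. The rule of size, a log2 ratio of at least 1 on RPKM + 1 with a filter at 1 RPKM, was applied to all genes. It was also run on simulated data with 200 planted genes and counting error alone. Those data cannot show how the rule fares under replicate, GC or amplification error. Named are all called genes, the extremes of each complex and comparison, core subunits, isoform pairs, the 3 most abundant genes per complex and, of the other lists, called genes and some of the extremes. The gene group, the lists and the rule were chosen with earlier results of these data known. Alternatives were pseudocounts of 0.1 and 5 RPKM, filters at 5 RPKM and none, a rule of 0.5, median centring, trimmed mean scaling (30% of ratios, 5% of levels), exon length, GC removal and both together, structural subunits alone and at least 100 reads. After seeing the data, removal of the trend with transcript length, genes without pseudogene copies and with under 10% of exon bases shared, and G3SKM against OSKM were added. Python 3.11.15, pandas 2.3.3, numpy 2.4.6, SciPy 1.17.1 and matplotlib 3.10.9 were used.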

Additional observations from a re-analysis of the deposited data

Results flagged for a closer look

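Pseudogene loci named after respiratory chain genes lie outside the 93 genes. Of the 11 such loci listed, 3 were higher than in the empty vector control by the rule of size in at least 1 factor group. Over all genes 8.88% were called higher with SKM, 4.79% with OSKM and 7.06% with G3SKM. So few loci cannot be set apart from these shares as a group. Ndufb4c, a processed copy of Ndufb4, was at 113 RPKM in empty vector, 318 with SKM, 235 with OSKM and 321 with G3SKM, with log2 ratios against empty vector of 1.49, 1.05 and 1.502, beside 1.37, 0.91 and 1.39 for Ndufb4 itself. Uqcrh-ps1 had 1.14 in OSKM and 1.14 in G3SKM against empty vector, while Uqcrh itself had -0.49 and -0.48. Atp5k-ps2 was at 190.4 RPKM in empty vector and 481 in SKM, a log2 ratio of 1.33, where Atp5k itself had -0.09. Atp5l-ps1 went the other way in SKM, at -1.34, beside -0.10 for Atp5l. Processed pseudogenes have no introns, so their RPKM per gene span are not comparable with those of the genes. Reads that fit both a gene and its copy cannot be assigned from these values.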

How the results depend on the processing

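No paired analysis was possible because each group has 1 value. Depth was not limiting for the named genes except Ndufa4l2, Cox6a2, Cox8b, Cox7b2 and Cox8c, which have few reads in at least 1 group. Of 176 values of called genes under an alternative, 129 stayed past the rule on the same side, 47 fell under it and 0 reversed. The tally includes the settings with a filter at 5 RPKM and with no filter. A filter does not change the ratio of a gene, so those values stayed by construction. In SKM against empty vector, the genes called higher numbered 2 with a pseudocount of 5 RPKM, 4 with median centring, 4 with trimmed mean scaling and 26 with a rule of 0.5, and those called lower 1 with a pseudocount of 0.1 RPKM, 1 with centring, 1 with trimmed mean scaling, 2 on exon length, 1 on exon length with the GC trend removed and 3 with a rule of 0.5. Uqcrb was among those called lower with a pseudocount of 0.1 RPKM (-1.11), centring (-1.07), trimmed mean scaling (-1.07) and on exon length (-1.09), where Cox6a2 was the other (-1.03).

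In OSKM against SKM, the count called higher was 0 with a pseudocount of 5 RPKM, 0 with the GC trend removed, 0 with both exon length and the GC trend, 0 with the length trend removed and 4 with a rule of 0.5, which called 5 lower. In G3SKM against SKM, the count called higher was 2 with a pseudocount of 0.1 RPKM, on exon length, with the GC trend removed and with both, and 10 with a rule of 0.5, and the count called lower was 2 with a pseudocount of 0.1 RPKM and on exon length, 5 with a rule of 0.5, and 0 with a pseudocount of 5 RPKM, a filter at 5 RPKM, the GC trend removed and both. In OSKM against empty vector, the count called higher was 4 with a pseudocount of 0.1 RPKM and on exon length, 1 with a pseudocount of 5 RPKM, 1 with a filter at 5 RPKM and 20 with a rule of 0.5. In G3SKM against empty vector, the count called higher was 1 with a pseudocount of 5 RPKM, 2 with centring, 2 with trimmed mean scaling, 2 with the length trend removed and 33 with a rule of 0.5, and the count called lower was 1 on exon length (Cox6a2, -1.07) and 1 with exon length and the GC trend. A smaller rule, a larger pseudocount or centring changes the counts by construction, and the cause was not tested for the others.

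The median ratio of the chain ranged over the alternatives from 0.26 to 0.46 in SKM, from 0.11 to 0.34 in OSKM and from 0.27 to 0.51 in G3SKM against empty vector, from 0.02 to 0.13 in G3SKM against SKM and from 0.06 to 0.16 in G3SKM against OSKM. In OSKM against SKM it changed sign, to 0.00066 with no filter and 0.038 on exon length with the GC trend removed. With a rule of 0.5, the shares of all genes called higher were 28.2%, 14.6%, 17.4%, 21.9% and 25.8% in the order of the comparisons above.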
